A study of Mus musculus with 10 samples.

Results

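The envelope genes of the epidermal differentiation complex were followed in keratinocytes of mouse back skin. They were chosen by name in the GRCm38 annotation: every symbol that starts with Lce or Sprr, plus Flg, Flg2, Hrnr, Rptn, Lor, Ivl, Crnn, Kprp, Crct1 and Lelp1, wherever at least 1 library listed the gene. Of 48 annotated genes that fit, all on chromosome 3, 44 were listed, among 17983 genes listed in all. Lce3b, Lelp1, Sprr2c-ps and Sprr3 were not listed and were not analysed here. The 44 genes were 14 Lce1 genes, 5 Lce3 genes, Lce6a, 2 Sprr1 genes, 12 Sprr2 genes, Sprr4, 5 genes of the filaggrin type (Flg, Flg2, Hrnr, Rptn and Crnn) and 4 others (Lor, Ivl, Kprp and Crct1).

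RNA sequencing covered 10 libraries in 4 groups. Control mice, whose genotype is labelled wild type, gave 3 libraries after AOO (acetone and olive oil mixed 4 parts to 1) and 2 libraries after water. Mutant mice, labelled Gsdma1KO/KO;Gsdma3fx/fx;K14-Cre, gave 3 libraries after AOO and 2 after water. In all 4 groups the liquid was rubbed on the back skin 2 times a day for 3 days and the label gives day 5. Epidermis was parted from dermis with dispase (3 hours) and keratinocytes were released with 0.25% trypsin-EDTA for 10 minutes. AOO extracts lipid from the horny layer, and the series title names epidermal barrier disruption as its purpose. K14-Cre acts in basal keratinocytes of the epidermis and hair follicle, so other skin cells keep Gsdma3, and the labels do not say whether controls carried Cre or floxed alleles. The age and sex of the mice are not in the labels. The number of mice behind a library is not stated, and the spread that the p-values rest on may therefore be technical in part.

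The cornified envelope is the protein shell that replaces the plasma membrane of a keratinocyte as it dies at the surface. Involucrin and the small proline-rich (SPRR) proteins are among its early parts, loricrin is its main protein, and the late cornified envelope (LCE) proteins join last. Transglutaminases crosslink them. Filaggrin and its relatives are long repeat proteins stored in granules of the granular layer, where filaggrin is processed to bundle keratin and is then broken down to the amino acids that hold water in the horny layer. The genes lie side by side, and SPRR and LCE3 genes are known as those raised when skin is injured or inflamed.

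Several features of the libraries bear on every value below. Recovered depth was 15914663 to 21812292 reads per library, and values are normalised read counts. The deleted gene Gsdma3 was at 61.8 to 280.0 in the 5 control libraries and at 0 to 2.62 in the 5 mutant libraries. Gsdma, the symbol of Gsdma1, was at 198.0 to 724.0 in controls and 169.0 to 835.0 in mutants, and the counts do not show whether the deleted part was among those reads. The basal keratins Krt5 and Krt14 and the suprabasal keratins Krt1 and Krt10 were each at 32975 or more in every library, which goes with the keratinocyte label. The 4 Y-linked genes Ddx3y, Eif2s3y, Uty and Kdm5d were at 0 in all 4 water libraries and summed to 3547 to 4917 in all 6 AOO libraries, so a difference in sex and the treatment cannot be told apart in any comparison of AOO with water. Markers of the hair inner root sheath summed to 10540 in control water replicate 2, 2187 in mutant AOO replicate 2 and 762 in mutant AOO replicate 3, against 112 to 270 in the other 7 libraries. Red blood cell markers summed to 14263 to 27272 in mutant AOO, 1164 to 2518 in mutant water, 4383 to 13261 in control AOO and 3287 to 6432 in control water, and 5 of 5 were called higher after AOO in the averaged comparison. In that comparison 3 of 5 skeletal muscle markers (Tnnt3, Acta1 and Ckm), 1 of 7 T cell markers (Xcl1) and 1 of 6 fibroblast markers (Lum) were called lower. Of all genes tested, 6.88% were called higher and 5.92% lower. Their part in the results, and that of the hair follicle markers, was not tested. In such bulk samples, fewer cells of a type and less RNA per cell cannot be told apart.

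Across the genes, AOO went with higher levels of most LCE and filaggrin type genes and with little difference in Ivl and Sprr1a. Averaged over the genotypes, 24 of the 40 genes that all 10 libraries listed were higher after AOO and 0 were lower at an adjusted p under 0.05 (limma, Benjamini-Hochberg over 15958 genes), beside 6.88% of all genes tested that were higher. The 24 were 11 of 14 Lce1 genes, 4 of 4 Lce3 genes, Lce6a, Sprr1b, 3 of 9 Sprr2 genes, 3 of 5 filaggrin type genes and Lor. The median difference of the 40 genes was 1.80 on the log2 scale, and that of all genes tested was -0.02. Of the 40, 37 had a positive difference, beside 48.2% of all genes. In 17 of the 40 all 6 AOO libraries lay above all 4 water libraries, beside 4.49% of all genes, and in 0 they lay below, beside 3.43%. Every log2 difference here is on log2(value + 1), which understates the change of low genes. Of the 40, 7 reached 10 normalised counts in fewer than 2 libraries of at least 1 treatment (Lce3c, Lce3d, Lce3e, Lce3f, Sprr2a2, Sprr2k and Crnn). Without those 7, 20 of 33 genes were called, all higher, with a median of 1.76. Fewer were called when mutant water replicate 2, mutant water replicate 1 or control water replicate 1 was left out, which leaves 1 library in that group. The share of all genes called in these fits is not given here, so the drop cannot be read as particular to these genes. The 7 genes called whichever library was left out were Lce1e, Lce1f, Lce1g, Sprr1b, Flg, Hrnr and Lce6a. Without the 2 or 3 libraries richest in hair follicle markers, a choice made after seeing the data, some of the 24 genes were no longer called. Those fits left out control water replicate 2 and so kept only replicate 1 of that group.

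**Figure D1:**
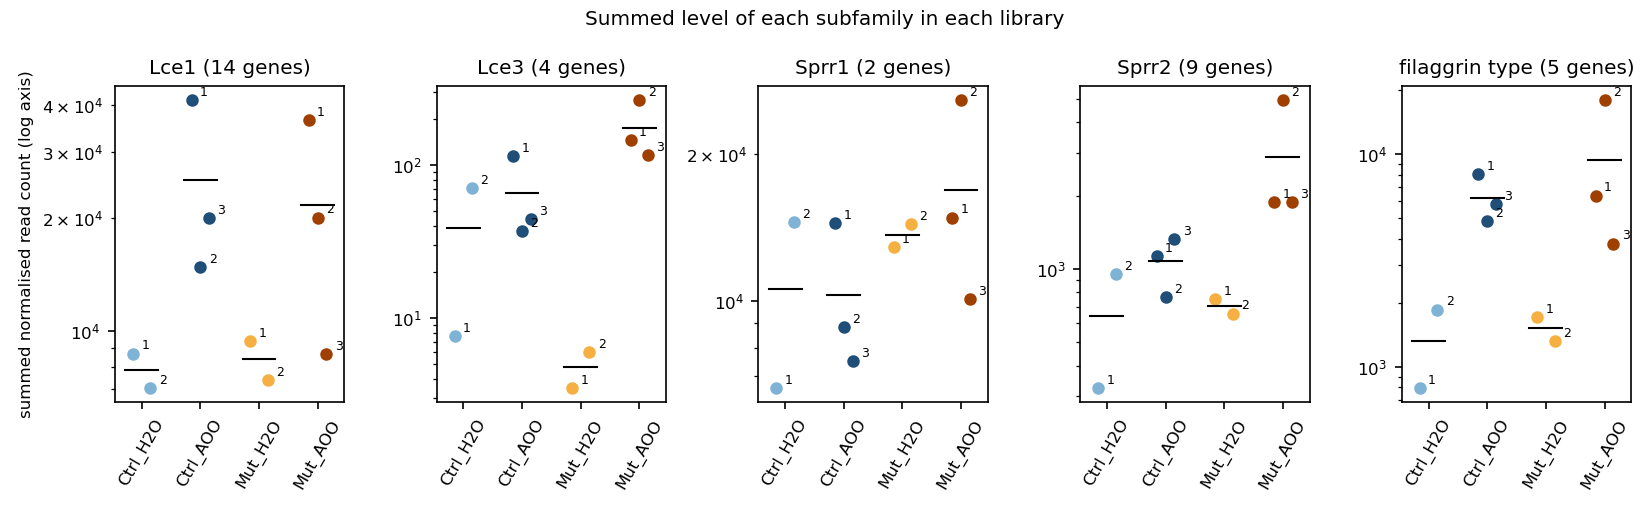
Each point is 1 library, numbered by replicate, and gives the summed normalised read count of the genes of 1 subfamily on a log axis, with a bar at the mean of each group. In the filaggrin panel all AOO libraries (3797 to 17896) lie above all water libraries (796 to 1860), while in the Sprr1 panel the AOO and water libraries overlap.

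The Lce1 genes encode small cysteine-rich proteins of the late envelope, and were the largest subfamily. Their summed count was 41227, 14840 and 19958 in the control AOO libraries and 8699 and 7045 in the control water libraries. In mutants it was 36468, 20067 and 8693 after AOO and 9419 and 7404 after water. Control libraries did not overlap between the treatments, while mutant AOO replicate 3 lay below mutant water replicate 1. Lce1g moved most. Its level was 1615, 736 and 722 in control AOO, 58.0 and 101.0 in control water, 2339, 862 and 471 in mutant AOO, and 84.7 and 53.0 in mutant water. All 6 AOO libraries were thus above all 4 water libraries, and the averaged difference was 3.73 ± 0.42 (SE) on the log2 scale, with a limma adjusted p of 0.00189. Lce1m, the other extreme, was at 6595, 2141 and 3539 in control AOO, 2643 and 1687 in control water, 4061, 3355 and 926 in mutant AOO, and 2798 and 2380 in mutant water. Its treatments overlapped and its averaged difference was 0.33 ± 0.42 (limma adjusted p = 0.595).

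In GRCm38 the Lce1 genes run from Lce1a1 (chr3:92646535-92648307) to Lce1m (chr3:93017810-93019060). The 8 genes from Lce1d to Lce1k, which follow each other with no other gene of the family between them, differed by 2.0 to 3.73 on the log2 scale in the averaged comparison and all 8 were called. The 6 genes on either side (Lce1a1, Lce1b, Lce1a2 and Lce1c before them, Lce1l and Lce1m after them) differed by 0.33 to 1.41, and 3 were called (Lce1a1 at 1.41 ± 0.36, Lce1b at 1.41 ± 0.37 and Lce1c at 1.19 ± 0.33). The 2 sets also differed in level per kilobase of exon. After water the inner 8 genes were at 80.2 to 683 normalised counts per kilobase and the outer 6 at 722 to 2500. After AOO the ranges overlapped, at 605 to 2970 and 1870 to 4950. This split into an inner and an outer set was made after the values were seen and has no test of its own, and the nearest values of the sets (Lce1d at 2.0 ± 0.34 and Lce1a1 at 1.41 ± 0.36) lie within 2 SE of each other. Lce6a, a lone LCE gene just before the outer gene Lce1a1, had a difference within the range of the inner set. It was at 609, 310 and 399 in control AOO, 61.8 and 59.4 in control water, 759, 339 and 189 in mutant AOO, and 82.1 and 63.8 in mutant water. Its 6 AOO libraries all exceeded its 4 water libraries (2.55 ± 0.34, limma adjusted p = 0.00462).

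Of the other inner genes, Lce1f was at 1877, 736 and 1012 in control AOO and 195 and 241 in control water. In mutants Lce1f was at 2263, 1448 and 605 after AOO and 244 and 154 after water, with no overlap (2.53 ± 0.36, limma adjusted p = 0.00519). Lce1e was at 440 to 1068 in control AOO, 106 and 109 in control water, 272 to 1266 in mutant AOO and 107 and 91.5 in mutant water, again without overlap (2.52 ± 0.38, limma adjusted p = 0.00665). Lce1k, Lce1h, Lce1j, Lce1i and Lce1d differed by 2.44, 2.40, 2.08, 2.07 and 2.0, with limma adjusted p from 0.0105 to 0.0176. Lce1a1, the Lce1 gene with the second highest mean count, was at 5735, 2065 and 3170 in control AOO, 1220 and 1101 in control water, 5304, 3229 and 1415 in mutant AOO, and 1427 and 984 in mutant water. Mutant AOO replicate 3 lay just below mutant water replicate 1 for Lce1a1, while its control libraries did not overlap. Lce1l and Lce1a2 did not pass the test (1.15 ± 0.40 and 1.01 ± 0.49, limma adjusted p = 0.0751 and 0.167).

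**Figure D2:**
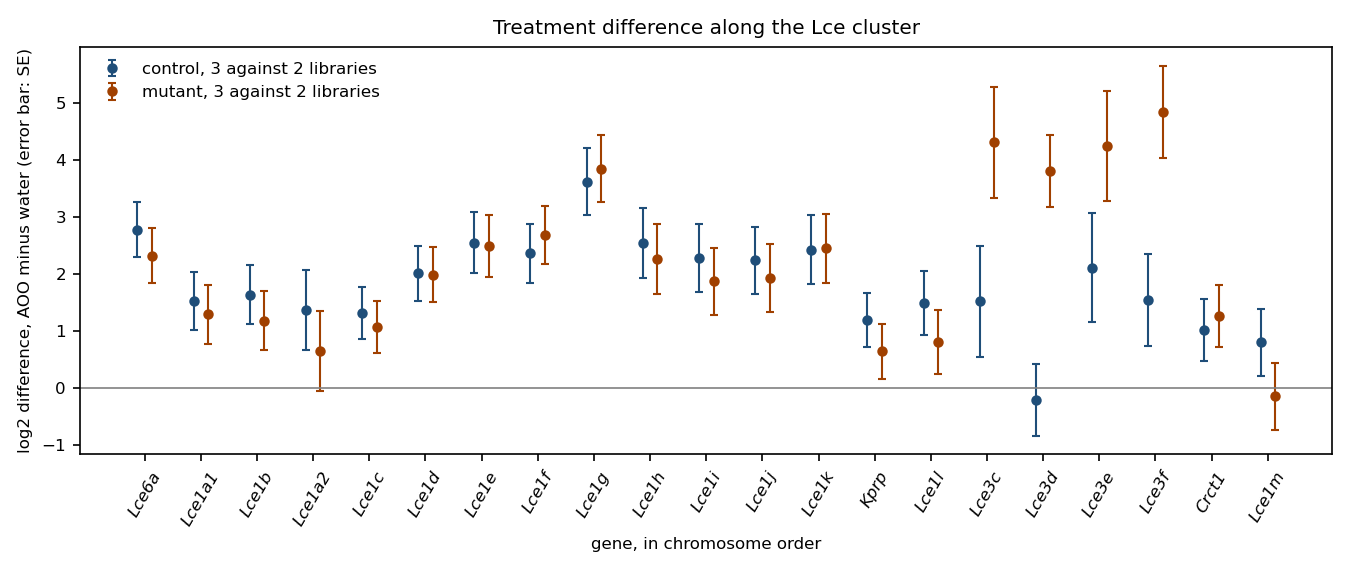
Points give the log2 difference between AOO and water for each gene of the Lce cluster in chromosome order, in controls (blue) and mutants (brown), with bars of 1 SE. Lce1g stands highest of the Lce1 genes in both genotypes (3.62 and 3.85), and the Lce3 genes lie between 3.81 and 4.85 in mutants and between -0.21 and 2.11 in controls.

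The sequences just before the Lce1 start sites are shown so that genes with large and small differences can be compared base by base. RefSeq promoter sequences (GRCm38.p6) were at hand for 42 of the 48 annotated genes, among them 13 Lce1 genes. None was at hand for Lce1f, 1 of the inner genes. The 40 bases before each start are given 5′ to 3′, with the letters ATAAAA, which resemble a TATA box, in capitals.
Lce1a1 (chr3:92648308-92648347, minus strand): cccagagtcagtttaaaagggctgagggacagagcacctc
Lce1a2 (chr3:92670316-92670355, minus strand): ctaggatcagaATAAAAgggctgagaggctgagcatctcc
Lce1b (chr3:92656927-92656966, minus strand): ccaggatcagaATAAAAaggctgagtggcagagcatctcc
Lce1c (chr3:92679207-92679246, plus strand): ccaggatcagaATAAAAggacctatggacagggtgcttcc
Lce1d (chr3:92687211-92687250, minus strand): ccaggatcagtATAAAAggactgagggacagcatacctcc
Lce1e (chr3:92709075-92709114, minus strand): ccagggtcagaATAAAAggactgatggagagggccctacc
Lce1g (chr3:92752339-92752378, minus strand): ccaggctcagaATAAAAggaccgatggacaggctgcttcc
Lce1h (chr3:92765066-92765105, minus strand): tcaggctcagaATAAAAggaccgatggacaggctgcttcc
Lce1i (chr3:92778900-92778939, minus strand): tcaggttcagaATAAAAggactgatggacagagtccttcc
Lce1j (chr3:92790515-92790554, minus strand): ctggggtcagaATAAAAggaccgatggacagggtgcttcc
Lce1k (chr3:92807892-92807931, minus strand): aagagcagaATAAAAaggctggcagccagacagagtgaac
Lce1l (chr3:92851287-92851326, minus strand): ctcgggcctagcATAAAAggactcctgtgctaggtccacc
Lce1m (chr3:93019062-93019101, minus strand): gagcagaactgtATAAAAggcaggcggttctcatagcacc
With its first base 36 to 22 bases before the start, on the gene's strand, ATAAAA was found in 12 of 13 Lce1 promoters and 5 of 6 Lce3 promoters, against 1.54% of 32851 promoters searched. Many Lce1 promoters resemble each other in these bases, so they are not independent cases to set against that share. Compared position by position with no shift allowed, Lce1g and Lce1h were identical at 39 of 40 positions, Lce1g and Lce1c at 37, and Lce1g and Lce1m at 11. Lce1a1, Lce1k, Lce1l and Lce1m were identical to Lce1g at 13 positions or fewer, and Lce1a1 lacked ATAAAA there. ATAAAA began 31 bases before the start in Lce1k and 28 in Lce1l and Lce1m, against 29 in Lce1g. These low counts may therefore come from an offset and do not show that the sequences are unrelated. Lce1h nevertheless differed by 2.40 ± 0.43 against 3.73 ± 0.42 for Lce1g, and the ratio of Lce1g to Lce1h counts was at most 0.956 in the water libraries and above 1 in every AOO library, up to 1.70. The difference between these genes was not tested. Lce1c, almost as close in these bases, differed by 1.19. Only these 40 bases were compared, and a match of letters is a description and not a binding site.

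The Lce3 genes, the LCE genes known for their response to injury, were the scarcest subfamily and the one with the greatest fold between treatments in mutants (37.1 for their summed count, 1.68 in controls). The summed count of the 4 genes listed everywhere was 115, 36.9 and 44.6 in control AOO, 7.61 and 70.5 in control water, 146, 266 and 117 in mutant AOO, and 3.49 and 6.02 in mutant water. In mutants all AOO libraries exceeded all water libraries, while in controls water replicate 2 lay above AOO replicates 2 and 3. Lce3c, the most abundant, was at 67.0, 19.9 and 25 in control AOO, 1.90 and 45.4 in control water, 68.6, 161 and 65.4 in mutant AOO, and 2.62 and 4.82 in mutant water. Its difference was 4.31 ± 0.98 in mutants (limma adjusted p = 0.026) and 1.52 ± 0.98 in controls. Lce3f was at 8.87, 9.46 and 2.17 in control AOO and 0 and 4.64 in control water, and at 28.7, 36.5 and 20.5 in mutant AOO. Mutant water libraries held 0 reads of Lce3f and of Lce3e, and a count of 0 was set to a limit of 3 reads over the group. The mutant AOO mean was 18.6 times that limit for Lce3f and 13.6 times it for Lce3e. These ratios allow for no spread among the AOO libraries, where Lce3e was at 27.7, 27.6 and 7.47. Lce3d had 92 reads in the mutant AOO libraries and 2 in the mutant water libraries, a ratio of 28.7 with an exact 95% interval of 7.73 to 241 that covers counting error only. Fitted differences of Lce3e and Lce3f depend on the value added before the logarithm and are no bounds (4.25 ± 0.96 and 4.85 ± 0.81 in mutants, limma adjusted p = 0.0249 and 0.0123). Lce3a was listed in water libraries only, at 2.85 and 14.8 in controls and at 0 in both mutants.

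These 4 genes reached 10 normalised counts in 3 to 6 AOO libraries and 0 or 1 water library, so they entered the test through the AOO libraries where they were high, and their joint count and fold are no support for a response of the subfamily. They were called in mutants and not in controls, but the difference between the genotypes in the effect of treatment did not pass the test for any of them. The interaction was 4.02 ± 0.89 for Lce3d (unadjusted p = 0.000982, limma adjusted p = 0.356) and 3.31 ± 1.14 for Lce3f (limma adjusted p = 0.372). Within control water, mutant AOO and mutant water the highest Lce3 sum (70.5, 266 and 6.02) was in the library richest in hair inner root sheath markers. Other libraries went the other way. Mutant AOO replicate 1 (Lce3 sum 146, marker sum 270) exceeded replicate 3 (117 and 762). Control AOO replicate 1 (115 and 200) exceeded replicate 3 (44.6 and 215). The part of these markers in the result was not tested. The Lce3 genes also share sequence. Between 35.7% and 49.3% of the 50-base words of Lce3c, Lce3d, Lce3e and Lce3f transcripts occur in another annotated gene, so reads may have been split between them or dropped. For the Lce1 genes the shared part was 0 to 27.1%.

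The SPRR genes encode proline-rich proteins that are crosslinked between the other envelope proteins. The pair of Sprr1 genes went separate ways. Sprr1a, the most abundant gene of all 44 per kilobase after water, was at 11617, 6722 and 5591 in control AOO, 5911 and 13537 in control water, 9488, 17294 and 6452 in mutant AOO, and 12008 and 12828 in mutant water. The treatments overlapped and the averaged difference was -0.26 ± 0.32 (limma adjusted p = 0.575). Sprr1b was at 2843, 2112 and 1936 in control AOO, 706 and 979 in control water, 5327, 8509 and 3619 in mutant AOO, and 896 and 1521 in mutant water. All 6 AOO libraries lay above all 4 water libraries, and Sprr1b rose by 1.84 ± 0.24 on the log2 scale (limma adjusted p = 0.00444). The ratio of Sprr1a to Sprr1b counts was 1.78 to 4.09 in AOO libraries and 8.37 to 13.8 in water libraries. No 50-base word of either gene occurs in another gene, so their reads can be told apart. Within AOO, all 3 mutant libraries of Sprr1b exceeded all 3 control libraries, with a difference of 1.27 ± 0.31 and a limma adjusted p of 0.314. DESeq2 on the recovered reads gave 1.34 ± 0.33 for the same comparison, with an adjusted p of 0.0125.

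The upstream sequences of the pair are shown because their levels diverged. In Sprr1a the capitals mark the AP-1 motif, TGACTCA or its reverse complement TGAGTCA, and in Sprr1b they mark TATAAA.
Sprr1a (chr3:92485973-92486042, minus strand): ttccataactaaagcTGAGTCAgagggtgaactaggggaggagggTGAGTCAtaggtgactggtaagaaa
Sprr1b (chr3:92438791-92438940, minus strand): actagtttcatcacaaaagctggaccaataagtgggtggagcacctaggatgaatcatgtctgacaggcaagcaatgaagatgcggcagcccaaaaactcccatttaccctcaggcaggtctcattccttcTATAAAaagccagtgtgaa
Sprr1a held the AP-1 letters at 146 and 116 bases before its start. The 300-base window of Sprr1b (250 bases before to 50 after the start) held none, which says only that these letters are not in that window.

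The Sprr2 genes are a tandem array that ran from Sprr2a1 (chr3:92215799-92221911) to Sprr2k (chr3:92432582-92433925). Their summed count over the 9 genes listed everywhere was 1129, 767 and 1327 in control AOO, 324 and 954 in control water, 1875, 4922 and 1876 in mutant AOO, and 752 and 655 in mutant water. Mutant AOO libraries were all above mutant water libraries, and control water replicate 2 lay among the control AOO libraries. Sprr2e was at 78.9, 36.9 and 60.9 in control AOO, 13.3 and 13 in control water, 120.0, 267 and 55.1 in mutant AOO, and 32.3 and 22.9 in mutant water. It showed no overlap between the treatments and the lowest adjusted p of the subfamily (2.06 ± 0.40, limma adjusted p = 0.0165). Sprr2d was at 185, 163 and 216 in control AOO, 39.0 and 105 in control water, 309, 889 and 195 in mutant AOO, and 95.2 and 93.9 in mutant water, also without overlap (1.76 ± 0.40, limma adjusted p = 0.0257). Sprr2i rose by 2.18 ± 0.60 (limma adjusted p = 0.0413) from 3.61 to 11.4 in water libraries to 14.1 to 107 in AOO libraries.

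The most abundant of the Sprr2 genes by mean count, Sprr2h and Sprr2a3, behaved less evenly. Sprr2h was at 417, 243 and 323 in control AOO, 88.5 and 403 in control water, 650.0, 1321 and 510.0 in mutant AOO, and 228 and 208 in mutant water (1.28 ± 0.40, limma adjusted p = 0.0567). Sprr2a3 was at 37.5, 58.7 and 486 in control AOO, 31.4 and 170.0 in control water, 253, 1272 and 879 in mutant AOO, and 50.6 and 18.1 in mutant water. Its averaged difference missed the threshold (2.44 ± 0.77, limma adjusted p = 0.0595) and its difference in mutants passed it (4.39 ± 1.09, limma adjusted p = 0.0321), with the control libraries overlapping. Of its 50-base words, 61.1% occur in another gene, and for Sprr2a1 and Sprr2a2, whose annotations overlap, 96.3% and 96.5% do, so values of these 3 genes are uncertain. Sprr2a2 was at 166 in mutant AOO replicate 2 and 0 to 33.6 elsewhere (1.47 ± 0.90, limma adjusted p = 0.262). Sprr2f (0.54 ± 0.50), Sprr2g (0.40 ± 0.35), which the annotation calls a polymorphic pseudogene, and Sprr2k (1.80 ± 0.63) were not called.

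Sprr2 genes outside the joint fit were read from the files that listed them. Sprr2b was not listed in control water libraries and was at 0.986, 1.89 and 40.2 in control AOO, 18.4, 72.0 and 19.6 in mutant AOO and 0 in both mutant water libraries. Its mutant AOO mean was 23.9 times the limit of 3 reads over the group, a ratio that allows for no spread among the AOO libraries. Sprr2a1, also not listed in control water, was at 2.96, 13.2 and 3.26 in control AOO, 10.2, 148 and 22.4 in mutant AOO, and 1.75 and 2.41 in mutant water, where its 4 reads give little precision (3.47 ± 1.02, limma adjusted p = 0.0509 in a fit of genes listed in both mutant groups). Sprr2j-ps was listed in mutants only, at 10.2, 19.6 and 1.87 after AOO and 0.873 and 4.82 after water (1.40 ± 0.97, limma adjusted p = 0.337). Sprr4, a single-copy relative, was at 300.0, 116 and 261 in control AOO, 53.3 and 752 in control water, 606, 1472 and 582 in mutant AOO, and 179 and 167 in mutant water. It was not called in the averaged comparison (1.13 ± 0.62, limma adjusted p = 0.214), and its value rested on the control water libraries. The difference was 2.08 (limma adjusted p = 0.00931) without control water replicate 2 and 0.18 (limma adjusted p = 0.801) without control water replicate 1.

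**Figure D3:**
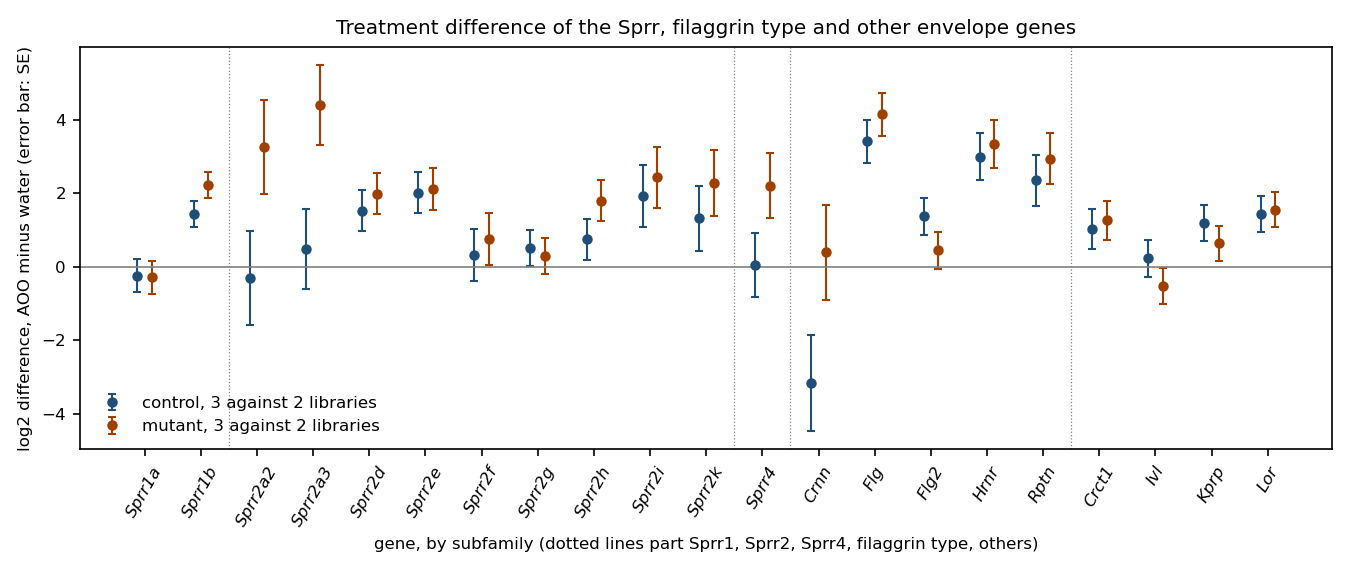
Points give the log2 difference between AOO and water for the Sprr, filaggrin type and other envelope genes, in controls (blue) and mutants (brown), with bars of 1 SE. Flg and Hrnr lie high in both genotypes (3.41 and 4.15, 2.99 and 3.34), Sprr1a and Ivl lie near 0, and Crnn lies at -3.16 in controls and 0.39 in mutants.

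The 40-base windows around the AP-1 letters are shown because they sit at nearly the same place in 7 of the 10 Sprr2 promoters searched, 193 to 198 bases before the start for the first match. The motif is in capitals.
Sprr2b (chr3:92316495-92316534, plus strand): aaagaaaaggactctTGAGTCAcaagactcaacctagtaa
Sprr2d (chr3:92338932-92338971, plus strand): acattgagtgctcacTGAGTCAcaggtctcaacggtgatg
Sprr2e (chr3:92351935-92351974, plus strand): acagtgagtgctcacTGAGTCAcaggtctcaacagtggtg
Sprr2f (chr3:92364975-92365014, plus strand): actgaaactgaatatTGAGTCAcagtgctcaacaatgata
Sprr2h (chr3:92385472-92385511, plus strand): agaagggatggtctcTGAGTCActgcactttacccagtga
Sprr2i (chr3:92407783-92407822, plus strand): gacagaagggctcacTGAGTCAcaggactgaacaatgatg
Sprr2k (chr3:92432371-92432410, plus strand): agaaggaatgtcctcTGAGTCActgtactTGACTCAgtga
Over both strands, TGACTCA or TGAGTCA was found in 10 of 42 promoters of the annotated genes, against 5.20% of 32851 promoters of the same length. The other 3 were Sprr1a, Ivl and Lor, and none was in the 13 Lce1, 6 Lce3 or 5 filaggrin type promoters. The 7 Sprr2 windows share bases around the motif and are not independent cases. The genes with the motif included called ones (Sprr2d, Sprr2e, Sprr2i and Lor) and ones not called (Sprr2f, Sprr2h, Sprr2k, Sprr1a and Ivl), and Sprr2b was outside the fit. TATAAA, on the gene's strand, was in 18 of the 42 against 8.32% of promoters, and CACCC, on either strand, was in 22 of the 42 against 57.5%.

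Among the filaggrin type genes, Flg, Hrnr and Rptn rose, and Flg2 and Crnn were not called. Flg, which encodes the filaggrin precursor, was at 3901, 2564 and 2054 in control AOO and 160.0 and 411 in control water. In mutants Flg was at 3697, 9401 and 1969 after AOO and 279 and 189 after water. Every AOO library was at least 1969 and every water library at most 411, and the averaged difference of 3.78 ± 0.41 (limma adjusted p = 0.00164) was the largest of the 40 genes. Hrnr, which encodes hornerin, was at 1551, 956 and 1398 in control AOO, 97.0 and 262 in control water, 989, 4354 and 764 in mutant AOO, and 147 and 146 in mutant water (3.16 ± 0.45, limma adjusted p = 0.00519). Rptn, which encodes repetin, was at 213, 145 and 108 in control AOO, 12.4 and 64.0 in control water, 287, 1189 and 325 in mutant AOO, and 71.6 and 53.0 in mutant water (2.65 ± 0.50, limma adjusted p = 0.014). None of these 3 overlapped between the treatments. The sequence before the Flg start is shown as that of the gene with the greatest difference, with TATAAA in capitals.
Flg (chr3:93273446-93273520, plus strand): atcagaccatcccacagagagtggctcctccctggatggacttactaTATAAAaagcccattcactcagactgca

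Flg2, a relative of Flg (chr3:93273523-93293686) at chr3:93197278-93221391, was at 2380, 1187 and 2272 in control AOO, 520.0 and 989 in control water, 1413, 2924 and 732 in mutant AOO, and 1207 and 933 in mutant water. Mutant AOO replicate 3 lay below both mutant water libraries and Flg2 was not called (0.91 ± 0.36, limma adjusted p = 0.105). The ratio of Flg to Flg2 counts, not corrected for length, was 0.904 to 3.21 in AOO libraries and 0.203 to 0.416 in water libraries, and that of Hrnr to Flg2 was 0.616 to 1.49 and 0.122 to 0.265. These ratios were chosen after the values were seen and describe the libraries. Crnn, which encodes cornulin, a protein best known from oesophagus, was at 0 to 27.6 in 9 libraries and at 134 in control water replicate 2, the library richest in hair inner root sheath markers. Its averaged difference was -1.38 ± 0.92 (limma adjusted p = 0.298).

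**Figure D4:**
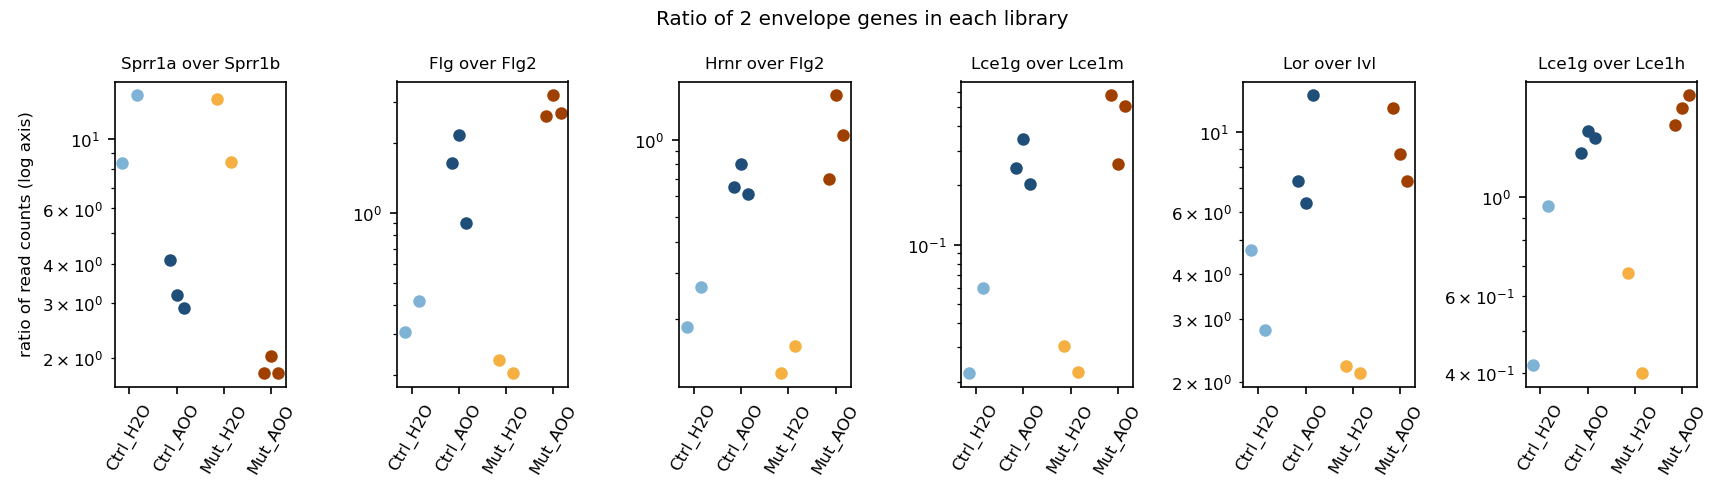
Each point is the ratio of the read counts of 2 genes in 1 library, on a log axis, for 6 pairs. In every panel the 6 AOO libraries (dark colours) lie apart from the 4 water libraries (light colours), as for Sprr1a over Sprr1b with 1.78 to 4.09 against 8.37 to 13.8. Each pair was picked to set genes with unlike treatment differences together, so this separation follows from the choice and is no test.

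Lor and Ivl, the classic late and early envelope genes, also parted. Lor, which encodes loricrin, lies at chr3:92080271-92083142 and held the highest count of the 44 genes in all 10 libraries except control water replicate 2 and both mutant water libraries, where Sprr1a was higher. Lor was at 30973, 15207 and 22967 in control AOO, 6946 and 9555 in control water, 28622, 43121 and 11344 in mutant AOO, and 9877 and 6876 in mutant water. All AOO libraries lay above all water libraries (1.49 ± 0.34, limma adjusted p = 0.0265). Ivl, which encodes involucrin, was at 4237, 2390 and 1807 in control AOO, 1483 and 3420 in control water, 2442, 4957 and 1550 in mutant AOO, and 4471 and 3255 in mutant water, with overlap in both genotypes (-0.15 ± 0.36, limma adjusted p = 0.787). The ratio of Lor to Ivl counts was 6.36 to 12.7 in AOO libraries and 2.11 to 4.68 in water libraries. Their AP-1 windows are shown because both promoters hold the motif (capitals) while only Lor was called.
Ivl (chr3:92573827-92573866, minus strand): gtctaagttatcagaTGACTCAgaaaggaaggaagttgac
Lor (chr3:92083166-92083205, minus strand): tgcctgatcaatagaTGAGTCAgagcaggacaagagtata
Crct1, which lies between the Lce3 genes and Lce1m, was at 1396 to 5570 in AOO libraries and 925 to 1950 in water libraries (1.14 ± 0.38, limma adjusted p = 0.0679). Kprp, which encodes a keratinocyte proline-rich protein, was at 799 to 3442 and 863 to 1180 (0.92 ± 0.34, limma adjusted p = 0.0869).

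The order of levels changed with the treatment. Per kilobase of exon, Sprr1a (13736), Lor (4673), Lce1m (2505) and Crct1 (1730) were the highest after water, followed by Lce1a1 (1678) and Ivl (1643). After AOO the order was Lor (14262), Sprr1a (11820), Lce1a1 (4945), Sprr1b (4889) and Crct1 (4062), with Ivl in place 15 of 40 (1507). Sprr1a and Lor after AOO overlapped in their libraries' counts per kilobase, as did Lce1a1, Ivl and Crct1 after water. Flg went from place 33 to place 26 and Lce1g from place 26 to place 16. The 40 genes together took 0.142% to 0.233% of the reads in water libraries and 0.252% to 0.709% in AOO libraries.

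Within each genotype, treatment calls were uneven. In mutants 18 of 40 genes were called, all higher, beside 6.74% of all genes tested (limma). Of the 40, 37 had a positive difference, beside 50.5% of all genes. In 26 all mutant AOO libraries lay above both mutant water libraries, beside 28.8% of all genes, and in 0 below, beside 29.2%. The 18 called genes were Lce1d, Lce1e, Lce1f, Lce1g, Lce1h, Lce1k, the 4 Lce3 genes, Lce6a, Sprr1b, Sprr2a3, Sprr2d, Sprr2e, Flg, Hrnr and Rptn. Without the 7 genes that reached 10 in fewer than 2 libraries of a treatment, 14 of 33 were called, all higher. Without mutant AOO replicate 2, 6 of the 18 remained called, and without the 3 libraries richest in hair follicle markers fewer than 18 remained. The calls were lost without either mutant water library, which leaves 1 library in that group. The share of all genes called in these fits is not given here. In controls limma called 0 of 40 genes, beside 0.0627% of all genes tested (0.0564% higher and 0.00627% lower), while 24 of 40 had an unadjusted p under 0.05, beside 12.9% of all genes. A positive difference was seen in 36 of 40, beside 50.1% of all genes. By other tools the control count was 0 with edgeR, which called 0.0439% of all genes, and 16 with DESeq2, which called 2.21% of all genes there. Of those 16, Crnn was lower after AOO (-4.17 ± 1.24, DESeq2 adjusted p = 0.0407) and the others were higher. In 25 of the 40 genes all control AOO libraries lay above both control water libraries, beside 12.2% of all genes. In 1 (Crnn) they lay below, beside 12.0% of all genes. The control values nearest to the threshold were Lce1g (3.62 ± 0.59, limma adjusted p = 0.0736), Flg (3.41 ± 0.58, limma adjusted p = 0.0821) and Lce6a (2.78 ± 0.48, limma adjusted p = 0.0854). For the Lce1 genes the control difference ranged from 0.80 to 3.62 and the mutant difference from -0.15 to 3.85. Calls in mutants and none in controls do not show that the genotypes differ, and the interaction called 0 of 40 genes (limma adjusted p from 0.356 to 0.996), beside 0.0% of all genes. Its unadjusted p was under 0.05 for 3 of the 40 (Lce3d, Lce3f and Sprr2a3), beside 11.9% of all genes, and 23 of 40 values were positive, beside 52.1%. edgeR and DESeq2 called 0 of the 40 as well, beside 0.0% and 1.06% of all genes.

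Mutants and controls given the same treatment did not differ beyond the threshold in any of the 40 genes, beside 0.0% of all genes in both comparisons (limma). After AOO, 8 of 40 had an unadjusted p under 0.05, beside 12.0% of all genes. All 8 had higher fitted means in mutants (Lce3d, Lce3f, Sprr1b, Sprr2a2, Sprr2a3, Sprr2h, Rptn and Sprr4). Of these, Lce3f (20.5 to 36.5) and Sprr2a2 (33.6 and 166) reached the minimum value for testing only in mutant AOO libraries. They entered the test through the group where they were high, so this count and its direction are set in part by the filter. Later counts that include Lce3f or Sprr2a2 share this limit. The difference between mutants and controls after AOO was positive for 25 of 40, beside 52.1% of all genes. In 7 of 40 all mutant AOO libraries lay above all control AOO libraries, beside 8.55% of all genes, and in 0 below, beside 8.23%. DESeq2 called 2 of the 40 there, Sprr1b and Sprr2a2, beside 1.05% of all genes, and edgeR called 0, beside 0.0%. By subfamily the median difference between mutants and controls after AOO was -0.22 for Lce1, 1.54 for Lce3, 1.09 for Sprr2 and 0.58 for the filaggrin type, beside 0.02 for all genes tested. Without the 7 genes low in a treatment, the median of the other 33 was 0.05 and 18 were positive. No cell type marker was called in this comparison either. Values were positive for 6 of 6 hair inner root sheath markers (median 3.06), 5 of 5 endothelial (1.90), 5 of 5 hair shaft (1.84) and 7 of 7 sebocyte markers (1.23). So were 6 of 6 Langerhans and dendritic cell (1.14), 5 of 5 red blood cell (0.99), 5 of 5 melanocyte (0.97) and 7 of 7 T cell markers (0.33). Positive values were seen for 4 of 5 skeletal muscle (0.14), 3 of 6 suprabasal keratinocyte (-0.05), 1 of 6 fibroblast (-0.45) and 0 of 8 basal keratinocyte markers (-0.69). Their part in the result was not tested. After water, 23 of 40 differences were positive, beside 48.9% of all genes. An unadjusted p under 0.05 was seen for 1 of 40 (Lce3d, -2.38 ± 0.69, limma adjusted p = 0.964), beside 4.99% of all genes. There edgeR and DESeq2 called 0 of the 40, beside 0.0% and 0.0376% of all genes. A p that misses the threshold with 2 or 3 libraries a group does not show that the genotypes were alike.

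Single libraries stood out within groups. In control AOO, 37 of 40 genes were highest in replicate 1, among them all 14 Lce1 genes, 7 of 9 Sprr2 genes and 5 of 5 filaggrin type genes, beside 41.3% of all genes. In mutant AOO the highest library differed between subfamilies. All 14 Lce1 genes were highest in replicate 1, beside 39.5% of all genes. In mutant AOO, all 9 Sprr2 genes, 5 filaggrin type genes and 2 Sprr1 genes were instead highest in replicate 2, which held the highest value for 32.3% of all genes. That library also had the highest sums of markers of suprabasal keratinocytes (600435 against 202642 to 467950 in the others), sebocytes (13923) and red blood cells (27272), and its part in the subfamily pattern was not tested. Mutant AOO replicate 3 was lowest of its group for 35 of 40 genes. The standard deviations follow from this: the Lce1 sum was 25342 ± 13993 (SD, n = 3) in control AOO against 7872 ± 1169 (SD, n = 2) in control water, and the filaggrin type sum was 9360 ± 7505 (SD, n = 3) in mutant AOO against 1518 ± 270 (SD, n = 2) in mutant water.

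**Figure D5:**
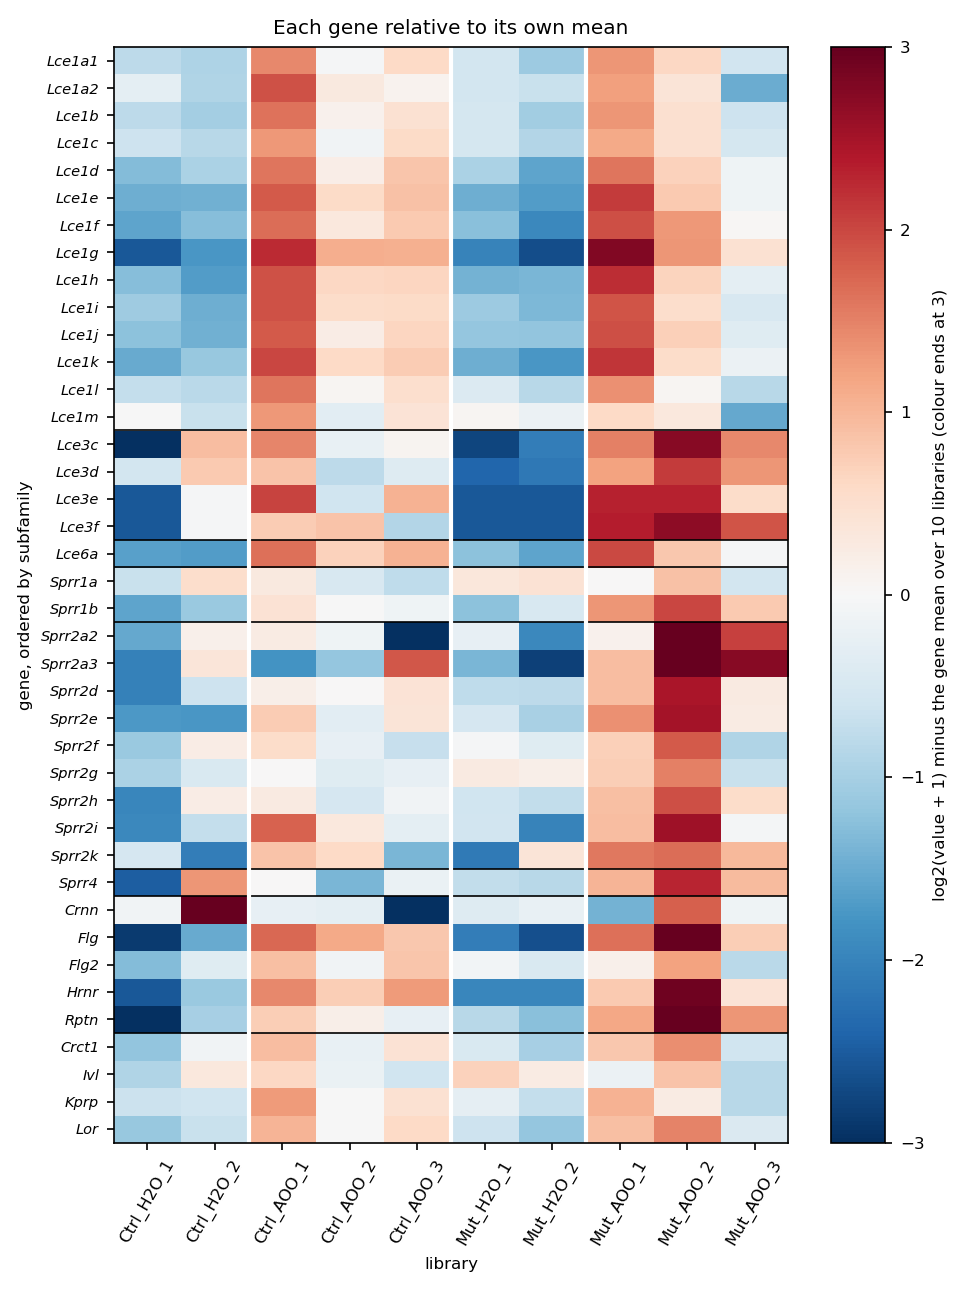
Each row is 1 of the 40 genes listed in all libraries and each column 1 library, coloured by log2(value + 1) minus the gene's mean over the 10 libraries, with colours ending at a difference of 3. The Lce1 rows are darkest red in replicate 1 of both AOO groups, while the Sprr2 and filaggrin type rows of the mutant AOO group are darkest in replicate 2.

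Other genes of envelope assembly were read from lists in the averaged comparison, in which 6.88% of all genes tested were higher and 5.92% lower, with a median of -0.02. Of 3 transglutaminases tested, Tgm3, which crosslinks envelope proteins late in differentiation, was higher after AOO, at 922, 1200 and 1983 in control AOO, 366 and 272 in control water, 801, 1084 and 841 in mutant AOO, and 222 and 235 in mutant water. Tgm3 differed by 2.01 ± 0.20 (limma adjusted p = 0.00144) and was also called in controls alone (2.04 ± 0.29, limma adjusted p = 0.0481), while Tgm1 (0.96 ± 0.34) and Tgm5 (0.19 ± 0.21) were not called. Of 14 genes of filaggrin processing and breakdown, 3 were higher and 0 lower, with a list median of 0.81. They were Casp14 (1.95 ± 0.31) and Blmh (1.48 ± 0.27), a protease and an aminopeptidase that break filaggrin down, and Pcsk6 (0.79 ± 0.20), a proprotein convertase. Of 17 envelope and desmosome genes outside the complex, 3 were higher and 1 lower, with Calm4 (1.37 ± 0.24), Dsc1 (1.35 ± 0.27) and Ppl (-0.58 ± 0.15), which encodes periplakin, at the lowest adjusted p. Of 15 other genes of the complex, mostly S100 genes, 1 was higher (S100a14, 0.49 ± 0.13) and 0 lower, a share near that of all genes. S100a9, a marker of inflamed skin, was at 2.85 to 666 over all libraries and was not called (3.33 ± 1.09, limma adjusted p = 0.0657).

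Among 27 regulators of late differentiation tested, more were called lower than higher after AOO in mutants, and 0 were called in controls. In controls 13 of 27 differences were positive, with a list median of -0.03. In mutants 1 was higher and 8 lower (list median -0.46), beside 6.74% and 6.69% of all genes tested. In the averaged comparison 1 was higher and 3 lower (list median -0.14), beside 6.88% and 5.92%. Maf, a transcription factor of late differentiation, rose by 0.51 ± 0.13, and Nfe2l2 (-0.74 ± 0.20) and Trp63 (-0.59 ± 0.17), which encodes the p63 factor of stratified epithelia, fell. In mutants the lowest adjusted p belonged to Fosl1, a subunit of AP-1 (-2.01 ± 0.43, limma adjusted p = 0.0219), Grhl3 (-1.11 ± 0.26) and Trp63 (-0.99 ± 0.24). Fosl1 was at 894, 414 and 421 in mutant AOO and 2211 and 2145 in mutant water, and at 1278, 1248 and 1146 in control AOO against 2062 and 662 in control water, so the control treatments overlapped. Of 6 markers of suprabasal keratinocytes, 2 were higher and 0 lower, with a list median of 0.12. They were Krt1 (1.76 ± 0.26, limma adjusted p = 0.00563) and Dsc1, while Krt77 was at -0.72 ± 0.30 (limma adjusted p = 0.112). Of 8 basal markers, 0 were higher and 1 lower (Krt15, -0.59 ± 0.14), with a list median of -0.21, and Krt14 was at 0.58 ± 0.18 (limma adjusted p = 0.0612).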

How the data were processed

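Keratinocyte RNA was measured in 10 libraries. The authors' deposited values are a normalised read signal per gene, 1 file per library. The submitters' processing notes name Trimmomatic 0.38, featureCounts 2.0.0 and DESeq2 1.26.0 with GRCm38 (mm10), with no aligner or strand setting given in the sources used here. Without strand, reads of a gene and an antisense partner cannot be told apart. Dividing by the smallest step of a library gave whole reads for 100.0% of values (tolerance 0.1 read). Intervals cover counting error only. Of 17983 identifiers, 17974 had a symbol in the annotation.

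The files list different genes, and an unlisted gene was treated as missing. Of 15987 genes listed in all 10 files, those at 10 or more in at least 2 libraries were tested (15958), after median-of-ratios rescaling (factors 1.00 to 1.01). limma 3.58.1 (R 4.3.3, trend, two-sided) was run on log2(value + 1), taking the 10 libraries as 4 groups of 1 model, and calls needed a Benjamini-Hochberg adjusted p below 0.05. The script was tested on simulated data. Genes named were the 2 most abundant and the lowest adjusted p of each subfamily, every called gene and every gene outside the fit, and up to 3 genes of each other list. The genes, lists and tests were chosen with earlier results of these data known. Alternatives were pseudocounts, filters, scalings, a fit of the groups compared, no trend, a replicate block, edgeR 4.0.16 and DESeq2 1.42.0 on recovered reads, and each library left out.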

Additional observations from a re-analysis of the deposited data

How the results depend on the processing

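The sets of higher genes depended on which water libraries were in the fit. With each library left out in turn, the called genes numbered 7 to 27 in the comparison averaged over the genotypes (24 with all libraries), 0 to 21 in mutants (18) and 0 to 3 in controls (0), and 0 in both genotype comparisons and the interaction. Without mutant water replicate 1 and replicate 2 the averaged count was 8 and 7 and the mutant count 0, without control water replicate 1 the averaged count was 9, and without mutant AOO replicate 2 the mutant count was 6. In controls the count was 3 without AOO replicate 1 and 2 without mutant AOO replicate 1 or 2. limma without a trend called 9 genes in mutants. DESeq2 on recovered reads called 16 in controls (Crnn lower, the others higher) and 28 in mutants, beside 2.21% and 22.6% of all genes. It called 2 in mutants against controls after AOO, beside 1.05%. Leaving out the 2 or the 3 libraries richest in hair follicle markers, chosen after seeing the data, gave 3 in controls each time, and the 3 gave 5 in mutants. The cause was not tested. All other settings kept each count within 1.5 times, no called gene changed direction, and the subfamily sums moved by less than 1 SD under either other scaling. Depth limits the Lce3 genes, Sprr2a1, Sprr2a2, Sprr2b and Sprr2k, which rest on few reads. With the replicate number as a block, 12 genes were called in controls, all higher, against 0 without it, beside 0.363% of all genes. The block fit called 27 in mutants and 29 in the averaged comparison, beside 17.3% and 12.1% of all genes, and 0 elsewhere, beside 0.0%. The labels do not say that a number pairs libraries. Deviations of same-numbered libraries correlated from -0.105 to 0.451 and 3 of the 6 AOO libraries correlated best with their own number in the other genotype.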
